A study of Homo sapiens with 6 samples.

Results

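The nuclear pore complex is the channel through which proteins and RNA pass between nucleus and cytoplasm. The genes examined here encode its subunits, the nucleoporins. They were taken from the gene counts of C4-2 prostate cancer cells as the protein-coding genes whose symbol is NUP followed by a digit, plus RANBP2, TPR, POM121, POM121C, NDC1, SEH1L, AAAS, RAE1, GLE1 and AHCTF1. The rule found 33 genes among 59565 loci, and all 33 were among the 19029 genes that passed the filter on low counts. C4-2 is a castration-resistant derivative of the LNCaP prostate cancer line. Its enzalutamide-resistant line, labelled Enz-R (n = 3 libraries), was set against the parental C4-2 line (n = 3 libraries). Enzalutamide is an inhibitor of the androgen receptor. The labels do not state how resistance was selected, whether the line is 1 clone, whether drug was present at collection, or whether the libraries came from separate cultures. P-values here thus reflect the variation among 3 libraries a group, and this may be technical.

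Each pore is a stack of rings around a central channel. Membrane nucleoporins anchor it in the nuclear envelope, an inner ring and the Y-shaped outer ring complexes form the scaffold, and nucleoporins rich in phenylalanine-glycine repeats fill the channel. Filaments on the cytoplasmic face and a basket on the nuclear face serve as docking sites for transport receptors and exported RNA. Pores are assembled both at the end of mitosis and during interphase, so dividing cells such as cancer lines make nucleoporins in every cycle.

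Library totals ran from 15673404 to 23351394 counts in Enz-R and from 19400321 to 28247038 in the parental group. Luminal prostate markers were abundant in both groups: KLK3, the gene of prostate-specific antigen, averaged 2533 ± 63.9 CPM in Enz-R and 4768 ± 249 CPM in parental cells (SD, n = 3 each). CPM are counts per 1000000 counts, with library totals scaled by TMM factors. Summed over their lists, markers of other cell types had 6.76 to 8.05 CPM per kb in Enz-R and 8.24 to 8.78 in parental libraries for 5 fibroblast genes, for 5 endothelial genes 0.608 to 0.741 in Enz-R and 1.36 to 1.61 in parental libraries, and for 5 immune genes 0.706 to 0.903 in Enz-R and 0.434 to 0.691 in parental libraries. Among the fibroblast genes COL1A1 averaged 46.8 ± 4.47 CPM in Enz-R and 54.8 ± 1.98 CPM in parental cells. COL1A2 had 1.45 ± 0.339 CPM in Enz-R and 1.2 ± 0.024 CPM in parental cells, and COL3A1, DCN and LUM were below the filter. The part of these markers in the pore values was not tested. None of these 15 markers was at 0 in all 6 libraries.

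Most pore genes were lower in Enz-R. In the edgeR fit across all genes 24 of the 33 were called lower, 6 higher and 3 were not called, at an adjusted p under 0.05. Over all 19029 genes tested, 32.3% were called lower and 32.4% higher, and over the 13580 protein-coding genes among them 37.3% and 31.8%. The median log2 fold change, Enz-R over parental, was -0.35 over the pore genes and 0.01 over all genes tested. Beside a log2 fold change, ± gives its SE. The family was singled out with this contrast known, so its counts stand beside the background as a description and nothing is read from the difference. The groups did not overlap for the same numbers, with 24 genes lower and 6 higher in every Enz-R library, where 34.7% and 34.2% of all genes tested were so. Most changes were smaller than 2-fold. POM121 alone fell at least 2-fold and no pore gene rose by as much, where 8.66% of all genes tested were called at least 2-fold lower and 11.0% at least 2-fold higher. That count depends on the cut, as NUP155 (1.99-fold), NUP210 (1.98-fold) and RANBP2 (1.94-fold) fell just short of it. With other settings of the fit their log2 fold changes reached -1.09, -1.08 and -1.05, and that of POM121C -1.01. In bulk RNA, fewer cells with a transcript and less of it per cell cannot be told apart. CPM are relative to the rest of the library, so a lower value is a smaller share of the RNA sequenced.

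**Figure D1:**
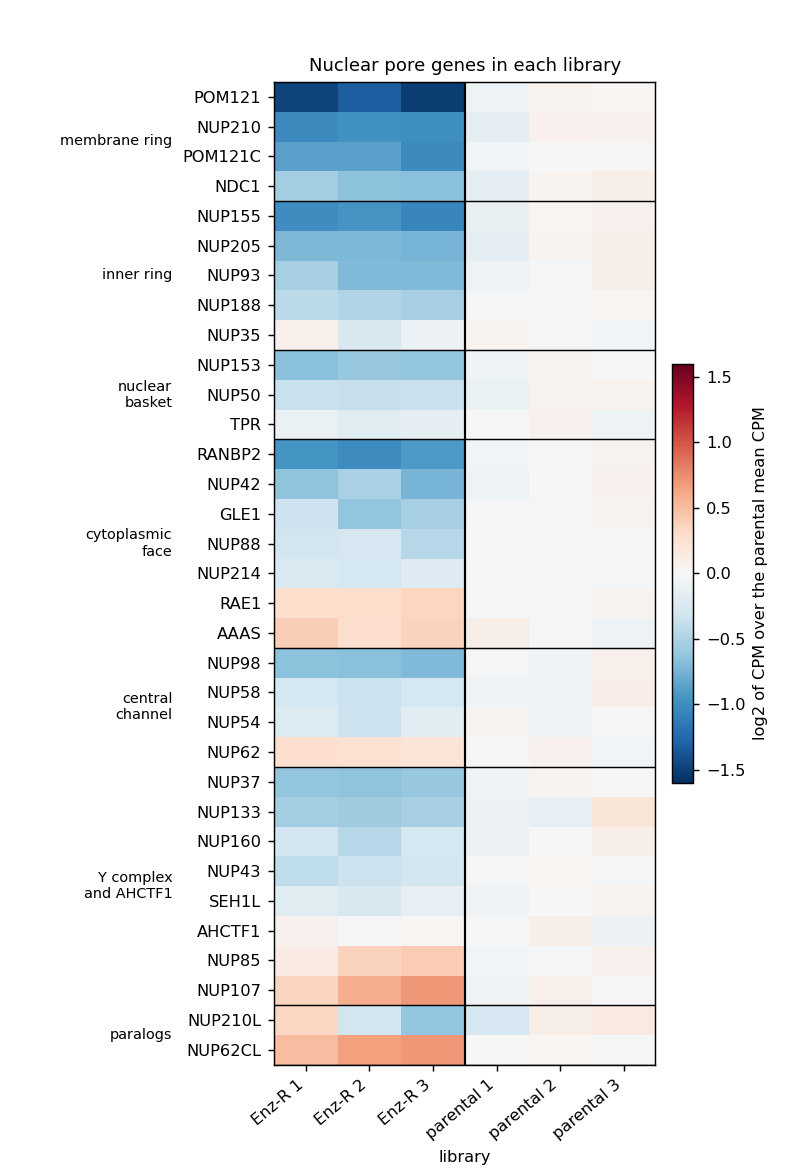
Level of each of the 33 nuclear pore genes in each library, as log2 of its CPM over the parental mean CPM, with genes in rows grouped by sub-complex and Enz-R libraries to the left of the black line. The membrane and inner rings are blue across the 3 Enz-R libraries except for NUP35, while RAE1, AAAS, NUP62, NUP85, NUP107 and NUP62CL are red.

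The 4 membrane ring genes all fell, with a median log2 fold change of -0.95, or -0.71 with transcript length regressed out. POM121 (ENSG00000196313, GRCh38 chromosome 7, 72879365 to 72951440), a transmembrane nucleoporin that anchors the pore and binds import receptors, had 24.3, 27.2 and 23.7 CPM in Enz-R libraries and 63.9, 70.1 and 69.1 CPM in parental libraries. Every Enz-R value lay below every parental value, and the log2 fold change of -1.43 ± 0.07 was the lowest of the family. POM121C (ENSG00000272391, chromosome 7, 75416787 to 75486271), a close copy of POM121 on the same chromosome, had 63.6, 63.5 and 57.3 CPM in Enz-R and 113, 117 and 118 CPM in parental libraries, a log2 fold change of -0.91 ± 0.06. The separate values of this pair are uncertain, because 20% of the 75-nt stretches of the POM121 transcript also occur in that of POM121C. Taken as a sum, the pair stood at 86.5 ± 4.98 CPM in Enz-R and 183 ± 5.80 CPM in parental cells, a ratio of 0.472. POM121 also shares 18.9% of its exon bases with other genes, among them NSUN5P2, which was not called (-0.47 ± 0.24). POM121C shares 5.98%, with genes that include NSUN5P1, which was higher in Enz-R (0.17 ± 0.06). The part of these genes in the POM121 and POM121C values was not tested.

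NUP210 (ENSG00000132182, chromosome 3, 13316235 to 13420309) encodes a large membrane glycoprotein of the pore whose level differs widely between tissues. It had 111, 115 and 114 CPM in Enz-R and 203, 237 and 235 CPM in parental libraries. The Enz-R libraries were close to each other and all below the parental ones, with a log2 fold change of -0.99 ± 0.07. Of the membrane ring, NUP210 had the highest level per transcript length in both groups, 15.8 ± 0.283 CPM per kb in Enz-R and 31.3 ± 2.67 in parental cells (SD, n = 3 each). NDC1, which ties the membrane to the inner ring, fell by 0.62 ± 0.07 on the log2 scale.

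The inner ring, which links the membrane to the central channel, held 4 genes that fell and 1 that was not called, with a median log2 fold change of -0.64. The median was -0.36 with transcript length regressed out, with 4 genes still lower. NUP155 (ENSG00000113569, chromosome 5, 37288137 to 37371181), which contacts the membrane, had 57.1, 59.4 and 55.3 CPM in Enz-R and 105, 117 and 120.0 CPM in parental libraries. NUP205, one of the pair of large scaffold proteins of this ring, had 100.2, 100.4 and 99.1 CPM in Enz-R and 150.0, 170.0 and 176 CPM in parental libraries. For both genes the lowest parental library was replicate 1, and it still lay above all Enz-R libraries. Their log2 fold changes were -0.99 ± 0.07 and -0.73 ± 0.07.

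NUP93, the adaptor that holds the inner ring and the channel proteins together, had 46.4, 41.1 and 41.0 CPM in Enz-R and 63.3, 65.9 and 71.5 CPM in parental libraries (log2 fold change -0.64 ± 0.07). NUP188, the partner of NUP205, had 95.3, 91.5 and 88.6 CPM in Enz-R and 125, 128 and 131 CPM in parental libraries (log2 fold change -0.48 ± 0.06). Both genes were lower in every Enz-R library than in any parental one. The smallest gene of the ring by transcript length, NUP35, had 17.0, 13.5 and 15.0 CPM in Enz-R and 16.7, 15.9 and 15.6 CPM in parental libraries. Its groups overlapped and it was not called (log2 fold change -0.08 ± 0.10, adjusted p = 0.505 by edgeR).

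The nuclear basket genes NUP153, NUP50 and TPR were all called lower, with a median log2 fold change of -0.36. With transcript length regressed out the median was -0.17, with 2 genes lower and 1, TPR, higher. NUP153, a mobile repeat protein at the base of the basket, had 48.7, 51.2 and 50.5 CPM in Enz-R and 74.2, 80.8 and 78.2 CPM in parental libraries (log2 fold change -0.63 ± 0.06). NUP50, which helps import receptors release their cargo, fell by 0.36 ± 0.06. TPR, the coiled-coil protein of the basket filaments, had 222, 210.1 and 216 CPM in Enz-R and 241, 252 and 227 CPM in parental libraries. Its groups were separated by a small gap, between 222 CPM in Enz-R and 227 CPM in parental cells. Its call, at a log2 fold change of -0.15 ± 0.06 (adjusted p = 0.0377 by edgeR), was lost without Enz-R replicate 2 (adjusted p = 0.131), Enz-R replicate 3 (0.0694), parental replicate 1 (0.0595) or parental replicate 2 (0.147). TPR had the highest level per length of the basket, 22.2 ± 0.611 CPM per kb in Enz-R and 24.8 ± 1.28 in parental cells.

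On the cytoplasmic face 5 genes fell while 2 rose. The median of the 7 was -0.34 on the log2 scale. RANBP2 (ENSG00000153201, chromosome 2, 108719481 to 108785811), the large filament protein that binds Ran and carries SUMO ligase activity, had 79.1, 76.2 and 81.2 CPM in Enz-R and 149, 152 and 159 CPM in parental libraries. The highest Enz-R library was far below the lowest parental one, and the log2 fold change was -0.96 ± 0.06. RANBP2 shares sequence with the RGPD genes: 20.3% of the 75-nt stretches of its transcript occur in those of 7 RGPD genes, so reads may be split between them. Among these, RGPD8 and RGPD2 were called lower, with log2 fold changes of -0.65 ± 0.19 and -0.53 ± 0.22. Both were low, RGPD8 at 2.85 ± 0.702 CPM in Enz-R and 4.4 ± 0.126 CPM in parental cells and RGPD2 at 3.29 ± 0.756 CPM in Enz-R and 4.63 ± 1.29 CPM in parental cells (SD, n = 3 each). RGPD5 (0.46 ± 0.25), RGPD3 (0.62 ± 0.4), RGPD6 (-0.34 ± 0.56) and RGPD1 (-0.75 ± 0.57) were not called, and RGPD4 was below the filter.

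NUP42, the partner of GLE1 at the export platform, had 18.5, 20.1 and 17.3 CPM in Enz-R and 27.3, 28.9 and 30.4 CPM in parental libraries (log2 fold change -0.63 ± 0.08). GLE1, which activates the helicase that strips export factors from mRNA, fell by 0.49 ± 0.08, and NUP88 fell by 0.34 ± 0.06. NUP214, the repeat protein that holds NUP88 and the helicase, had 60.9, 59.8 and 62.9 CPM in Enz-R and 73.1, 72.9 and 71.2 CPM in parental libraries (log2 fold change -0.24 ± 0.06). These 4 genes were lower in every Enz-R library than in any parental one. NUP88 shares 18.7% of its exon bases with other genes, among them RABEP1, which was higher in Enz-R (0.44 ± 0.07), and the reads of such stretches cannot be told apart without strand.

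The 2 cytoplasmic face genes that rose were AAAS and RAE1. AAAS (ENSG00000094914, chromosome 12, 53307456 to 53324864) encodes aladin, the protein mutated in triple A syndrome. It had 100, 91.5 and 97.5 CPM in Enz-R and 80.9, 74.8 and 71.8 CPM in parental libraries (log2 fold change 0.34 ± 0.06). RAE1, which binds NUP98 and mRNA export factors, had 52.8, 52.8 and 55.3 CPM in Enz-R and 42.7, 42.9 and 45.0 CPM in parental libraries (log2 fold change 0.30 ± 0.06). All 3 Enz-R libraries lay above the parental ones for both. Per transcript length AAAS was the most abundant of the 33 genes in both groups, at 52.3 ± 2.38 CPM per kb in Enz-R and 41.2 ± 2.52 in parental cells. Per kb of exon union it was the highest in Enz-R, at 23.3. In parental cells, at 18.3, it stood below NUP210 (27.5), NUP205 (21.7), GLE1 (19.7), TPR (19.5) and NUP43 (19.4).

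The central channel genes, with NUP98 counted among them, went in both directions, with 3 lower, 1 higher and a median log2 fold change of -0.27. The median was -0.19 with transcript length regressed out and -0.12 with GC content as well, with 2 lower and 1 higher. NUP98 encodes both the repeat protein NUP98 and, from the same precursor, a scaffold subunit of the Y complex. It had 91.2, 90.9 and 87.9 CPM in Enz-R and 141, 139 and 152 CPM in parental libraries, with no overlap (log2 fold change -0.68 ± 0.06). NUP58 had 88.9, 84.9 and 88.7 CPM in Enz-R and 104, 104 and 116 CPM in parental libraries (-0.30 ± 0.06). NUP54 had 56.6, 51.9 and 58.1 CPM in Enz-R and 68.2, 63.7 and 66.1 CPM in parental libraries (-0.25 ± 0.06). Both form the channel trimer with NUP62, and their Enz-R libraries were all below the parental ones.

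NUP62, the third protein of that trimer, went the other way. It had 110.3, 109 and 106 CPM in Enz-R and 90.4, 96.3 and 89.0 CPM in parental libraries, and each Enz-R library was above each parental one (log2 fold change 0.24 ± 0.06). NUP62 shares 21.1% of its exon bases with other genes. The partners ATF5 and IL4I1 were lower in Enz-R, with log2 fold changes of -0.32 ± 0.09 for ATF5 and -0.63 ± 0.21 for IL4I1, and their part in the NUP62 value was not tested.

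The Y complex with AHCTF1 held genes of either direction, with 5 genes lower, 2 higher and 1 not called, and a median log2 fold change of -0.27. Regressing out transcript length left 3 lower and 3 higher and a median of -0.13, or -0.09 with GC content as well. NUP107 (ENSG00000111581, chromosome 12, 68686734 to 68745809), a stem subunit of the Y, had 103, 120.4 and 131 CPM in Enz-R and 77.8, 85.2 and 79.2 CPM in parental libraries. All Enz-R libraries were above the parental ones, though they differed among themselves more than for most pore genes, with an SD of 13.8 CPM. Its log2 fold change was 0.55 ± 0.08. NUP133, the direct binding partner of NUP107 in the stem, had 45.9, 45.4 and 46.7 CPM in Enz-R and 63.6, 61.9 and 77.3 CPM in parental libraries (log2 fold change -0.55 ± 0.08). Their transcripts thus changed in opposite directions. Per transcript length NUP107 stood at 18.3 ± 2.14 and NUP133 at 8.83 ± 0.133 CPM per kb in Enz-R, and at 12.5 ± 0.608 and 13.0 ± 1.62 in parental cells, where the 2 levels lay within their spread.

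NUP85, a subunit of the short arm of the Y, had 61.4, 72.1 and 74.0 CPM in Enz-R and 54.3, 55.0 and 58.8 CPM in parental libraries (log2 fold change 0.30 ± 0.07). Its groups did not overlap, and it was the Y gene with the highest level per length of the longest transcript, 32.6 ± 3.19 CPM per kb in Enz-R and 26.4 ± 1.14 in parental cells. Per kb of exon union NUP43 was higher, at 15.3 in Enz-R and 19.4 in parental cells, where NUP85 had 13.3 in Enz-R and 10.8 in parental cells. NUP37, a propeller protein of the Y complex, fell by 0.63 ± 0.07, NUP160 by 0.35 ± 0.07 and NUP43 by 0.34 ± 0.06. SEH1L, which is shared with a complex that controls mTORC1, was called lower at -0.19 ± 0.06 (adjusted p = 0.0145 by edgeR). Without Enz-R replicate 2 (adjusted p = 0.0747) or parental replicate 3 (0.0615) it was not called. AHCTF1, the chromatin-bound protein that seeds pore assembly after mitosis, had 134, 125 and 131 CPM in Enz-R and 128, 137 and 119.7 CPM in parental libraries. Its groups overlapped, with a log2 fold change of 0.02 ± 0.06 (adjusted p = 0.80 by edgeR).

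The 2 paralogs were the lowest of the 33 by level per transcript length in parental cells, at 4.34 CPM per kb for NUP62CL and 0.135 for NUP210L. In Enz-R NUP62CL, at 6.65 CPM per kb, stood above POM121 (3.57) and NUP93 (5.19). NUP62CL, a short relative of NUP62, had 10.7, 12.0 and 12.3 CPM in Enz-R and 7.56, 7.76 and 7.52 CPM in parental libraries, and its log2 fold change of 0.61 ± 0.11 was the highest of the 33. NUP210L, a relative of NUP210 known from the testis, had 22, 11 and 8 counts in Enz-R and 19, 17 and 18 counts in parental libraries. Its groups overlapped and its fold change was not determined at this depth (log2 fold change -0.07 ± 0.33). Neither paralog shared a 75-nt stretch with its larger relative.

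**Figure D2:**
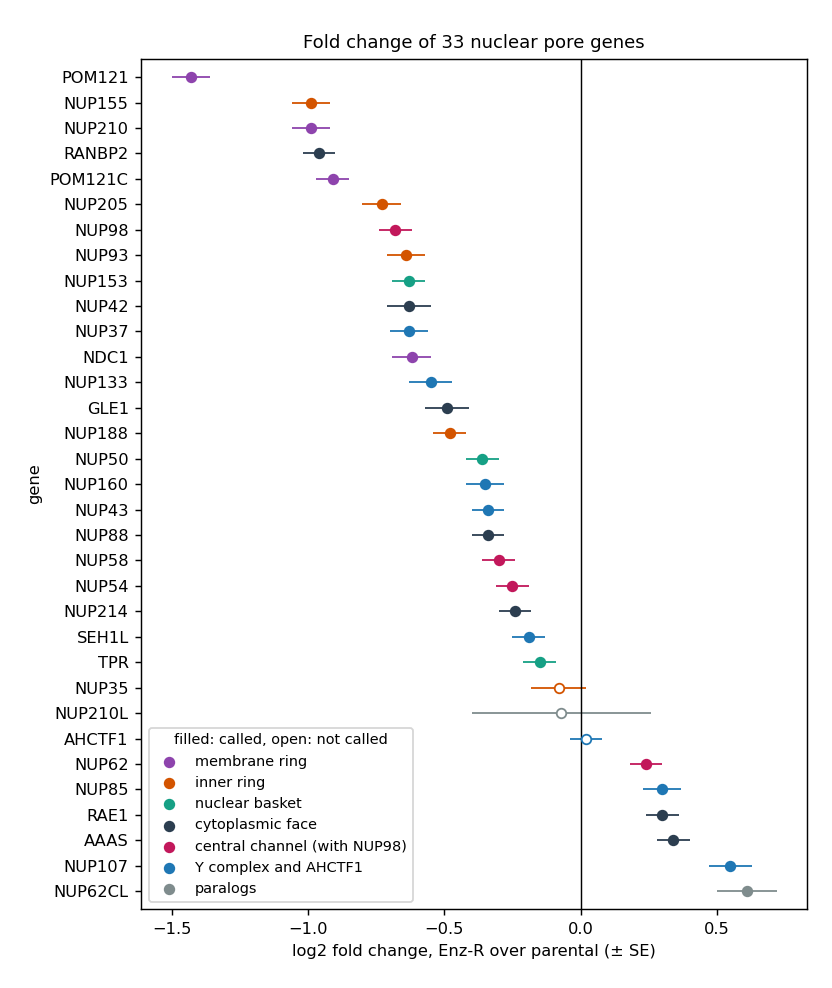
Log2 fold change, Enz-R over parental, of the 33 nuclear pore genes, ordered from lowest to highest and coloured by sub-complex, with bars for the SE of the edgeR fit. Filled points were called at an adjusted p under 0.05; NUP35, NUP210L and AHCTF1, drawn open, were not.

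Summed per transcript length, the 33 genes came to 489.9, 482 and 492 CPM per kb in Enz-R and 573, 594 and 600.3 in parental libraries, a ratio of 0.828. The membrane ring stood at 40.8 ± 0.953 CPM per kb in Enz-R and 77.6 ± 5.12 in parental cells, and the inner ring at 53.6 ± 1.92 in Enz-R and 80.8 ± 3.76 in parental cells, ratios of 0.526 and 0.663. The nuclear basket had 44.9 ± 0.478 in Enz-R and 56.1 ± 2.18 in parental cells, and the central channel 80.2 ± 1.45 in Enz-R and 90.9 ± 1.49 in parental cells (SD, n = 3 each). These 4 sums did not overlap between the groups. For the cytoplasmic face the sums were 134, 127 and 129 CPM per kb in Enz-R and 141, 138 and 139.7 in parental libraries, also without overlap. The Y complex sums of 126, 131 and 138 in Enz-R and 135, 141 and 143 in parental libraries overlapped. Differences between sub-complexes were not tested. The order of the 33 genes by level per length was similar in both groups (Spearman's rho 0.83, a description across genes of the same libraries). The order depends on the length used: with exon-union instead of transcript length it correlated with the one given here at 0.83 in Enz-R and 0.77 in parental cells.

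**Figure D3:**
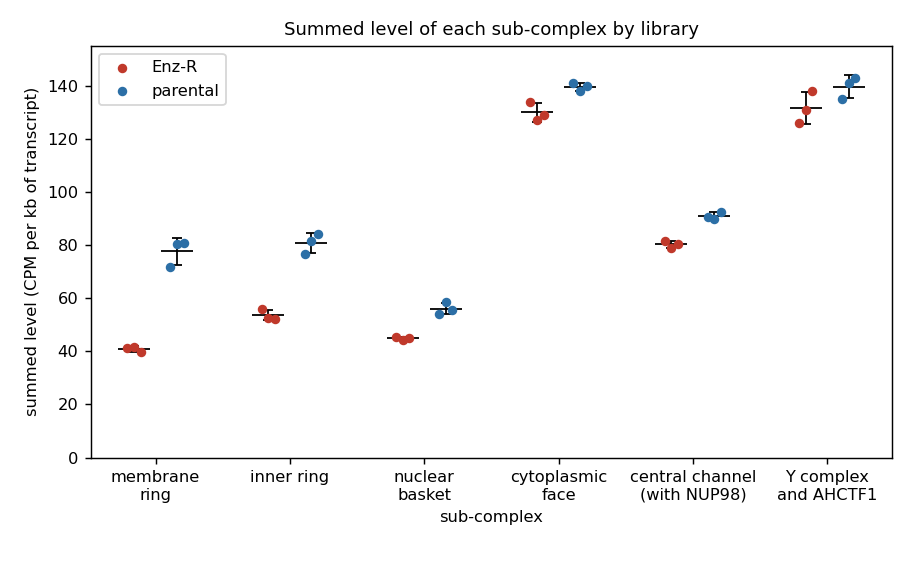
Summed level of the genes of each sub-complex, in CPM per kb of transcript, for each library (points; Enz-R red, parental blue) with the mean and SD of 3 libraries in black. The Enz-R libraries of the membrane ring lie between 39.7 and 41.5 and its parental libraries between 71.7 and 80.8, whereas the points of the Y complex overlap.

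Pore transcripts are long, and long transcripts as a class were lower in Enz-R. The median transcript of the 33 genes was 5376 nt, against 3372.5 nt over 13580 tested protein-coding genes. In 5 equal bands by transcript length, the shortest band of protein-coding genes had a median log2 fold change of 0.30 with 16.8% called lower, and the longest band, from 5753 nt upwards, a median of -0.29 with 55.7% called lower. In that longest band lay 15 pore genes, of which 12 were lower and 1 higher, with a median of -0.64. The 5 pore genes of the next longest band were all lower, with a median of -0.48, where the band had -0.17 with 45.5% called lower. Of the 4 pore genes in the shortest band 1 was lower and 2 higher, where 16.8% of the band were lower and 52.6% higher. Of the 4 in the second band 2 were lower and 2 higher, where 28.8% were lower and 36.3% higher. The third band held 5 pore genes, 4 lower and 1 higher, with a median of -0.34. That band had a median of -0.08, with 39.6% called lower and 29.1% higher. Across the 33 genes the log2 fold change correlated with log2 length at a Pearson's r of -0.48 and a Spearman's rho of -0.43. Across the 13580 protein-coding genes the values were -0.20 and -0.30. These are descriptions across genes measured in the same libraries.

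Set against the median of their own length band, 23 of the 33 pore genes lay below it, and the median difference over all 33 was -0.30 on the log2 scale. The 3 genes of the 2 shortest bands that fell were NUP42, with a transcript of 1795 nt, NUP54, with 2367 nt, and NUP37, with 2372 nt. They differed from the medians of their bands by -0.93 for NUP42, -0.30 for NUP54 and -0.68 for NUP37. In the longest band 5 pore genes lay above its median: NUP107 (6457 nt) by 0.84, AHCTF1 (8892 nt) by 0.31, NUP210L (5889 nt) by 0.22, TPR (9708 nt) by 0.14 and NUP214 (7600 nt) by 0.05. With transcript length regressed out of each library, the edgeR fit called 19 pore genes lower and 8 higher. The calls of NUP58, NUP160, NUP214 and SEH1L were then lost. TPR turned to 0.15 (adjusted p = 0.0467 by edgeR) and AHCTF1 was called higher at 0.31 (adjusted p = 0.000657 by edgeR). POM121 kept a log2 fold change of at most -1.18 under every alternative run, NUP155 of at most -0.69 and NUP210 of at most -0.73. The mitochondrially encoded share of counts also differed, at 15.5, 14.8 and 14.5% in Enz-R and 11.3, 10.5 and 8.78% in parental libraries, without overlap. With these genes left out no call of a pore gene changed, and the part of RNA quality in the length trend was not tested.

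**Figure D4:**
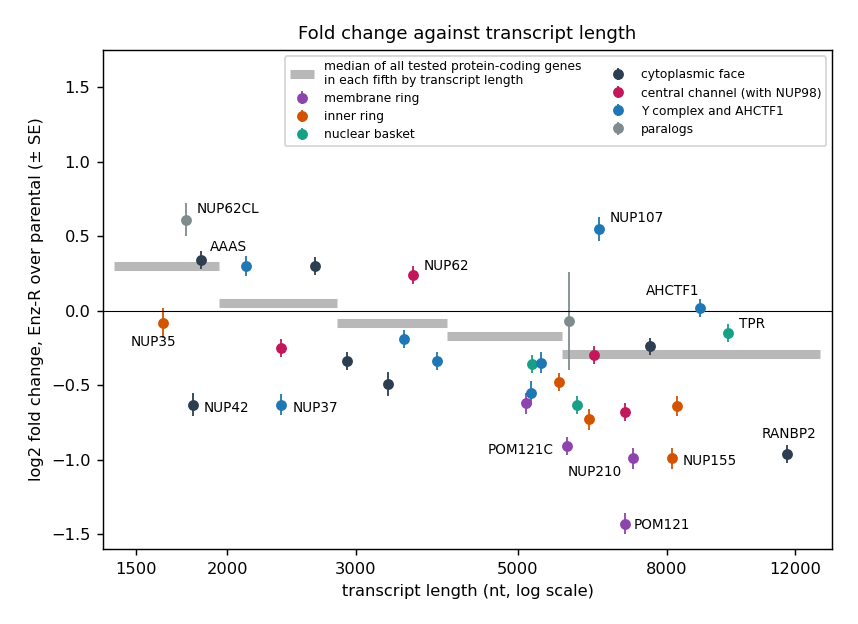
Log2 fold change, Enz-R over parental, with its SE, against transcript length on a log axis for the 33 nuclear pore genes, coloured by sub-complex. Grey bars mark the median of all tested protein-coding genes in each of 5 equal bands by length, from 0.30 in the shortest to -0.29 in the longest; NUP42 and NUP37 lie far below their bars and NUP107 far above.

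The pore genes are spread over many chromosomes. Tested protein-coding genes that start within 1000000 bases of a member gave a median log2 fold change for each, and 25 of the 33 members lay below that median. For POM121 the median of 17 neighbours was -0.07, for NUP210 that of 15 neighbours was 0.13, and for NUP155 that of 5 neighbours was -0.28. POM121C lay among genes that were mostly lower: its 19 neighbours had a median of -0.68 with 13 called lower. For the 6 genes that rose, the neighbours of NUP107 had a median of -0.11 (9 genes) and those of NUP62CL a median of -0.30 (11 genes, 4 called higher and 7 lower). The neighbours of NUP85, NUP62, RAE1 and AAAS had medians above 0, of 0.49, 0.42, 0.33 and 0.26. The part of neighbouring genes or of copy number in these values was not tested.

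Promoter sequence was read for 30 of the 33 genes, those with an entry in the RefSeq table (GRCh38.p14). Windows ran from 250 bases before to 50 after the start, the farthest upstream start of each gene in that table. Motifs were searched on both strands, without regard to overlap. The palindromic NRF1 motif, printed in capitals in the NUP50 and NUP107 sequences, is bound by a factor of housekeeping and mitochondrial genes. It was found in 3 pore promoters (10%) and in 1.37% of 27305 promoters. These were the promoters of NUP50, which fell, and of NUP62 and NUP107, which rose. The ETS motif CCGGAAGT was found in 5 (16.7%) against 4.41% of all promoters, and AAGATGGC for YY1 in 3 (10%) against 3.01%. CCAAT stood in 13 (43.3%) against 35.7% and the SP1 motif GGGCGG in 12 (40%) against 44.5%. TTTGGCGC for E2F stood in the promoter of NUP155 only, against 0.659% of all promoters. The letters TATAAA were in none of the 30 windows and in 12.0% of all promoters. The 27305 promoters are 1 for each gene of the RefSeq table, whether or not it passed the filter on low counts, which all pore genes did. The shares were not set beside those of tested genes alone. A match is a description of these letters and not of binding.

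The 250 bases before the RefSeq start of 4 pore genes are given 5′ to 3′ on the strand of the gene. Matches to the motifs above are in capitals. The gene bounds used elsewhere here differ from these starts. In them NUP107 begins at 68686734, NUP50 at 45163841 and NUP155, on the minus strand, at 37371181. Most of the NUP107 stretch and part of the NUP50 and NUP155 stretches thus lie inside those bounds. The matches of NUP107 and NUP50 lie there too. The NUP210 stretch lies outside its bounds, which end at 13420309. NUP155 and NUP210 are shown as 2 of the 3 largest falls, and NUP50 and NUP107 as the pair with an NRF1 match that moved in opposite directions. They are NUP155 at chr5:37371107-37371356 (minus strand), NUP210 at chr3:13420323-13420572 (minus strand), NUP50 at chr22:45163675-45163924 (plus strand) and NUP107 at chr12:68686728-68686977 (plus strand).
NUP155: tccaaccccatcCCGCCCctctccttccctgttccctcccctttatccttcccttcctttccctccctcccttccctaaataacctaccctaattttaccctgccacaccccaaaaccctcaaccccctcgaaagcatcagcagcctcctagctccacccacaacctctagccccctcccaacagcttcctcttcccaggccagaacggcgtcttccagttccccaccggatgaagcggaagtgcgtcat
NUP210: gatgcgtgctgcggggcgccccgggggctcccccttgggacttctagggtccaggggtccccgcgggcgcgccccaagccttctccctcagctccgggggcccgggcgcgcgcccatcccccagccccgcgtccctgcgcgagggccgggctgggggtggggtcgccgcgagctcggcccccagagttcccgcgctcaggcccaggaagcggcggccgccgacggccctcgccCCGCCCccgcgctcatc
NUP50: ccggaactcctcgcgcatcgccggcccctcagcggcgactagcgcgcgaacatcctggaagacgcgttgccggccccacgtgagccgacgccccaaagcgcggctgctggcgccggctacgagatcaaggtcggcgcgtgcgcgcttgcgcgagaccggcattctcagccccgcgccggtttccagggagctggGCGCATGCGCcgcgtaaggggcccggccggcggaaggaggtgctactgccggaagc
NUP107: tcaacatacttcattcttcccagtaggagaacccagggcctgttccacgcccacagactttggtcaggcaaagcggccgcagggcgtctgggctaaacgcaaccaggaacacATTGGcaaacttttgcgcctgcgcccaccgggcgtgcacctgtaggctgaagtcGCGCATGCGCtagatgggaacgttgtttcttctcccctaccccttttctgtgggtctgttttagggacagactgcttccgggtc

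In the printed sequence of NUP155 the capitals are 1 SP1 match, as in that of NUP210, where it lies close to the RefSeq start. NUP50 and NUP107 each hold 1 palindromic NRF1 match, and NUP107 also a CCAAT box in reverse. The start of a divergent RNA on the minus strand, NUP50-DT, lies inside the NUP50 stretch, at position 45163781 in GENCODE 29. NUP50-DT had 96, 62 and 56 counts in Enz-R and 223, 157 and 163 counts in parental libraries, and it fell by 1.00 ± 0.14 on the log2 scale, in the same direction as NUP50 itself. Likewise NUP107-DT, whose gene overlaps the first part of NUP107 on the other strand, had 33, 20 and 26 counts in Enz-R and 19, 8 and 16 in parental libraries, a log2 fold change of 1.22 ± 0.30. Both genes of each of these pairs thus changed in one direction. For NUP93 and NUP133 the divergent RNAs were below the filter on low counts. NUP93-DT had 4, 8 and 6 counts in Enz-R and 10, 1 and 10 in parental libraries. NUP133-DT had 5, 1 and 3 counts in Enz-R and 7, 3 and 3 in parental libraries. Reads of NUP107 and NUP107-DT cannot be told apart where they overlap, over 4.81% of the NUP107 exon bases. NUP50-DT and NUP107-DT were chosen after their values were seen.

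Transcripts of proteins that work through the pore were counted by list. Beside all lists here, 32.3% of all genes tested were called lower and 32.4% higher. In the longest band of protein-coding genes by transcript length 55.7% were lower and 17.7% higher. Import receptors, which carry cargo into the nucleus, were 11 of 18 lower and 2 higher, with a median log2 fold change of -0.41. KPNA6 averaged 86.8 ± 2.12 CPM in Enz-R and 168 ± 7.13 CPM in parental cells (-0.95 ± 0.06), and IPO13 (-0.78 ± 0.06) and IPO11 (-0.78 ± 0.11) also fell. KPNA3 (0.36 ± 0.08) and IPO5 (0.14 ± 0.06) rose, though 1 gene was higher without Enz-R replicate 1 or 2 or any 1 parental replicate, and the general import carrier KPNB1 was not called (-0.09 ± 0.06, adjusted p = 0.195 by edgeR). With length regressed out the median was -0.16, with 4 genes higher and 9 lower. All 7 export receptors fell, with a median of -0.47. With length regressed out 6 were called lower, with a median of -0.29. The tRNA exporter XPOT stood at 276 ± 16.2 CPM in Enz-R and 431 ± 15.1 CPM in parental cells (-0.64 ± 0.06), and XPO6, the exporter of actin, and XPO5, that of microRNA precursors, fell by 0.55 ± 0.06 and 0.49 ± 0.06. The main protein exporter XPO1 fell by 0.41 ± 0.06.

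The Ran cycle, which gives transport its direction, held 4 higher, 1 lower and 4 uncalled genes of 9, with a median of 0.16. The median was -0.01 with length regressed out, where 3 genes were higher and none lower, and 0.06 with total count scaling. The Ran importer NUTF2 (0.35 ± 0.06) and RANBP3 (0.27 ± 0.07) rose, RANGAP1, which docks on RANBP2 at the pore, fell by 0.23 ± 0.08 with overlapping groups, and RAN itself was not called (-0.10 ± 0.07, adjusted p = 0.193 by edgeR). These calls were unsteady: 2 genes were higher without Enz-R replicate 1, parental replicate 2 or parental replicate 3, and 2 higher and 3 lower with total count scaling. Of 20 mRNA export factors 9 were higher and 5 lower, with a median of 0.13, or 0.03 with total count scaling. ENY2, a subunit of the TREX-2 complex at the pore basket, averaged 77.8 ± 6.55 CPM in Enz-R and 40.1 ± 3.17 CPM in parental cells (0.96 ± 0.08). The THO complex genes THOC2 (0.74 ± 0.06) and THOC7 (0.65 ± 0.09) rose, and SARNP (-0.65 ± 0.15), POLDIP3 (-0.52 ± 0.07) and THOC3 (-0.31 ± 0.09) fell.

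The nuclear lamina and inner membrane genes, which border the pore, were 8 of 13 lower and 4 higher, with a median of -0.26, or -0.17 with length regressed out. SUN2, which links the lamina to the cytoskeleton, averaged 61.4 ± 6.18 CPM in Enz-R and 143 ± 16.8 CPM in parental cells (-1.22 ± 0.09), and LEMD3 (-1.02 ± 0.08) and the lamin gene LMNB1 (-0.77 ± 0.06) fell. BANF1, which binds DNA to the reforming envelope, rose (0.78 ± 0.07), as did EMD (0.31 ± 0.06). Among 9 other genes whose products bind the pore, 5 were lower and none higher, or 2 higher with length regressed out. The desumoylase gene SENP2 (-0.71 ± 0.08), TOR1A (-0.55 ± 0.07) and MAD1L1 (-0.46 ± 0.07) fell. SEC13, a Y complex subunit that the rule does not cover and that also coats secretory vesicles, stood at 91.8 ± 4.83 CPM in Enz-R and 92.2 ± 5.46 CPM in parental cells and was not called (-0.01 ± 0.07, adjusted p = 0.94 by edgeR). SEC13, KPNB1, XPO1 and RAN are named for their roles, with their values seen.

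**Figure D5:**
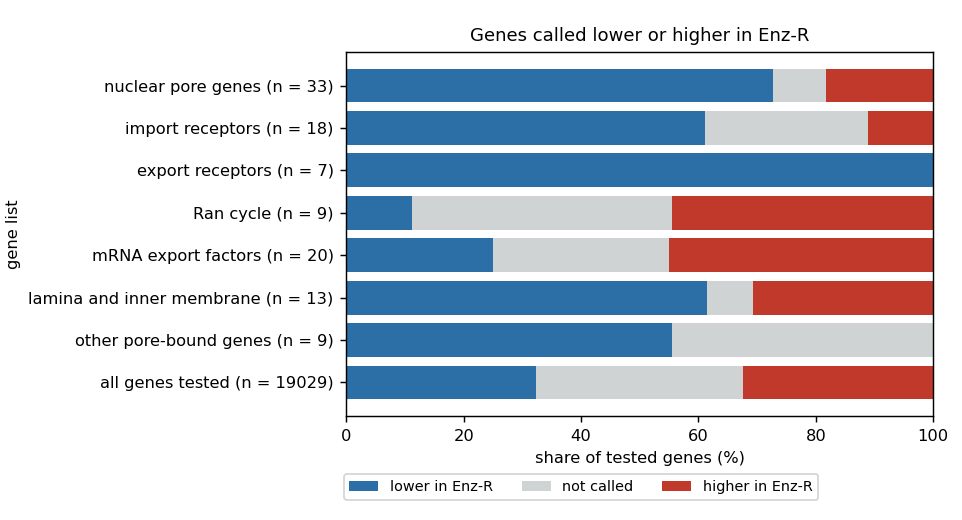
Share of tested genes called lower (blue), not called (grey) and higher (red) in Enz-R at an adjusted p under 0.05, for the nuclear pore genes, 6 related lists and all 19029 genes tested. All 7 export receptors were lower, while 9 of the 20 mRNA export genes were higher and 5 lower, and 4 of the 9 Ran cycle genes were higher and 1 lower (2 higher and 3 lower with total count scaling).

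Of 16 genes of DNA replication 14 were lower and none higher, with a median of -0.61. Over all genes tested 32.3% were lower and 32.4% higher. With length regressed out 13 of the replication genes were lower and 1 higher, with a median of -0.6. The pore median was -0.27 in that fit. Mitosis genes were mixed, with 7 of 12 lower and 4 higher and a median of -0.31, or -0.36 with length regressed out. The part of proliferation in the pore values was not tested.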

How the data were processed

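RNA-seq gene counts of 3 Enz-R and 3 parental C4-2 libraries were analysed. Per the labels, libraries were made with the NEBNext Ultra RNA kit and sequenced as paired-end reads. HISAT2 and GRCh38 are named in the submitters' processing notes. The counter, its annotation and strandedness were not given in the sources used here. The deposited table holds raw counts, which the authors made per gene and library. Of 59565 loci 889 are unannotated. Symbols came from a list of current gene names, and positions, lengths and GC content from GENCODE 29 (GRCh38; the longest protein-coding transcript).

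Counts were tested in R 4.3.3 with the quasi-likelihood test of edgeR 4.0.16 (genes kept by filterByExpr, TMM scaling, no covariate), with Benjamini-Hochberg adjustment over 19029 genes and a threshold of 0.05. The SE is the absolute log2 fold change over the square root of F. Alternatives used limma 3.58.1 and DESeq2 1.42.0, other scalings and filters, and splines (5 degrees of freedom) for GC content and length. The edgeR fit, with and without the splines, was tested on simulated data. Fold changes were planted there in far fewer genes than were called here. DESeq2, limma and the other scalings and filters were not tested so. Members and lists were chosen with earlier results of these data known. All members may be named; values in every library are given for the 10 lowest and 8 highest fold changes, both paralogs, both POM121 genes and the members highest and lowest in level per length in each sub-complex. Of each other list up to 3 called genes per direction with at least 5 CPM in the higher group are named. Protein sequences were not used here.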

Additional observations from a re-analysis of the deposited data

How the results depend on the processing

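Over 16 alternatives, 19 to 24 pore genes were lower in Enz-R and 6 to 8 higher, against 24 and 6 as reported, and over all genes 5049 to 7094 were lower and 5097 to 6475 higher. The median log2 fold change of the pore genes was -0.35 and stayed negative. It was -0.44 with total count scaling, -0.23 after regressing out GC content and length and -0.27 with length alone, and -0.40 to -0.35 leaving out 1 library at a time, the lowest without parental replicate 1. TPR reversed to 0.17 with GC content and length regressed out and to 0.15 with length alone, and NUP214 to 0.03 and 0.02 in the same fits. The call of TPR was also lost with at least 50 counts in 3 libraries (adjusted p = 0.0837), a filter that leaves out NUP210L. The cause was not tested. With the replicate number as a block, the counts were 24 and 6, the median was -0.35, and no call of a pore gene changed. Same-numbered libraries did not deviate together (r of -0.00808 to 0.0493) and 3 of 6 correlated best with their own number, so the numbers were not taken as pairs. Depth limits NUP210L, which had 8 to 22 counts a library.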

Other observations

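POM121B, a pseudogene of POM121 on chromosome 7, had 3, 0 and 0 counts in Enz-R libraries and 13, 10 and 10 counts in parental libraries, too few to be tested. POM121L9P, a transcribed pseudogene of the related POM121L family on chromosome 22, had 22, 11 and 15 counts in Enz-R and 17, 10 and 7 counts in parental libraries (log2 fold change 0.84 ± 0.34, adjusted p = 0.0416 by edgeR). NUP153-AS1, which overlaps the start of NUP153 on the other strand, had 12, 7 and 9 counts in Enz-R and 7 counts in each parental library and was below the filter on low counts. The pseudogene NUP210P3 had 18, 9 and 4 counts in Enz-R and 8, 12 and 10 counts in parental libraries and was not called (log2 fold change 0.36 ± 0.44, adjusted p = 0.494 by edgeR).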
